A study of Homo sapiens with 30 samples.

Results

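The genes described here encode the subunits of the proteasome, the protease complex that degrades ubiquitin-tagged proteins. They are the 37 PSMA, PSMB, PSMC and PSMD genes of the 20S core particle and the 19S regulatory particle. They were picked out by gene symbol from the 60675 gene rows of the count table. At the high dose of the formula Sibjeondaebo-tang 28 of the 37 subunit mRNAs were higher than at its low dose and 0 were lower, where 18.5% of all genes tested were higher. The median difference over all 37 was 1.15-fold. With Palmul-tang, whose herbs Sibjeondaebo-tang also contains, at the same doses 1 subunit mRNA was higher, where 1.46% of all genes were. The difference between the dose changes of these formulas, tested directly, passed for 2 of 37, where 5.59% of all genes were higher. Among well-expressed genes (defined below) 40.2% of protein-coding genes and 79.4% of subunit genes were higher at the high dose of Sibjeondaebo-tang. With libraries scaled by their totals alone, only PSMB2 and PSMD3 were higher there, where 3.67% of all genes were. All 37 genes passed the filter on low counts and are among the 17701 genes tested.

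The cells were A549, an established human lung carcinoma line, kept for 24 h with an ethanol extract of a Korean tonifying formula or with DMSO vehicle, and total RNA was sequenced. The extracts were tested at 20 (low dose), 100 (medium dose) and 500 µg/mL (high dose). Sibjeondaebo-tang and Palmul-tang have 3 libraries at each dose. Samul-tang has 2 at each, numbered 2 and 3, and Sagunja-tang has 1 at each, numbered 3. With 3 vehicle libraries there are 13 groups and 30 libraries. The sample titles of all 30, vehicle included, name Batch E. Palmul-tang unites the herbs of Samul-tang and Sagunja-tang. The DMSO content of the vehicle is 0.1% in the sample labels and 2% in the series text, and the counts cannot settle it. The labels do not say whether replicate libraries came from separate cultures, so the p-values measure only the scatter of these libraries, and that scatter may be technical. In bulk RNA a change in one transcript and a change in the total RNA per cell cannot be told apart.

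The 20S core is a barrel of stacked rings. The outer rings, of PSMA1 to PSMA7, form the gate through which substrates enter, and the inner rings, of PSMB1 to PSMB7, hold the proteolytic sites. The 19S particle caps the barrel: a ring of PSMC ATPases unfolds the substrate and threads it in, and PSMD subunits hold the ubiquitin receptors and the enzyme that removes the ubiquitin chain. In mammalian cells the subunit genes are known to be induced together when proteasome activity falls, through the transcription factor NFE2L1. The set is grouped here into 7 alpha-ring genes, 7 beta-ring genes, 3 immunoproteasome beta genes, 6 ATPase genes, 3 non-ATPase genes of the base, 8 lid genes and 3 chaperones of base assembly.

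Libraries held 23986637 to 35159898 counts, with a median of 32383996. The epithelial markers KRT8 (3350 to 4400 CPM) and KRT18 (2268 to 2924 CPM) and the A549-associated enzyme gene ALDH1A1 (3857 to 5144 CPM) were high in all libraries. So were KRT7 (2165 to 3699 CPM) and AKR1B10 (3528 to 4620 CPM). The epithelial markers CDH1 (131 to 164 CPM) and EPCAM (17.6 to 24.3 CPM) were much lower. The T cell marker CD3E and the endothelial marker VWF had a median of 0 CPM, PTPRC did not exceed 0.226 CPM and PECAM1 did not exceed 0.433 CPM. The monocyte and fibroblast markers CD14, COL1A1 and DCN lay between 1.04 and 6.89 CPM. CPM is the count of a gene as a proportion of its library, here after scaling by TMM, a factor per library that makes the bulk of genes comparable. Even PSMB9, with the fewest counts, had 85 to 146 counts in each library. Replicate libraries differed by a median coefficient of variation of 4.43% per subunit gene, from 1.74% for PSMC4 to 8.23% for PSMA2.

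The summed level of the 37 genes was highest at the high dose of Sibjeondaebo-tang. It was 4225 ± 138 CPM in the vehicle, 4159 ± 83.1 CPM at the low dose, 4263 ± 90.0 CPM at the medium dose and 4785 ± 179 CPM at the high dose (SD, n = 3 each). The single high-dose libraries had 4975, 4762 and 4620 CPM, and every library of the other 12 groups lay below them. Palmul-tang gave 4117 ± 142, 4263 ± 52.0 and 4360 ± 208 CPM from the low to the high dose (SD, n = 3 each). Samul-tang averaged 4154 ± 14.8, 4235 ± 175 and 4285 ± 7.23 CPM (SD, n = 2 each), and the single Sagunja-tang libraries had 4187, 4245 and 4411 CPM. The libraries at the high dose of Palmul-tang overlapped with those at its medium dose. For 29 of the 37 genes the group with the highest mean was the high dose of Sibjeondaebo-tang, and for 6 it was the vehicle. The group with the highest mean was not counted over all genes, so these counts describe the subunit genes only.

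**Figure D1:**
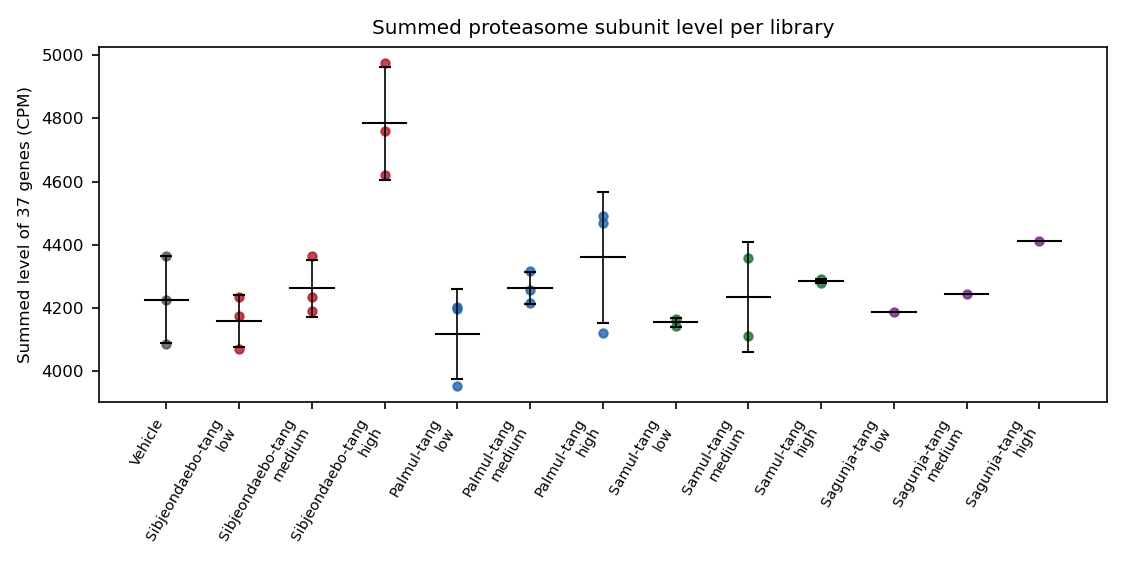
Summed CPM of the 37 proteasome subunit genes in each library (points) by group, with the group mean (line) and SD (error bar); the y axis does not start at 0. The 3 libraries at the high dose of Sibjeondaebo-tang lie between 4620 and 4975 CPM, above all others.

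The share of counts from mitochondrial genes also varied between libraries, and it is given here because it moves with the subunit genes. In each of the 10 groups with 2 or more libraries, the library with the highest mitochondrial share had the lowest summed subunit level. Replicate 3 of the high dose of Sibjeondaebo-tang had 19.9% mitochondrial counts and 4620 CPM, the lowest sum of its group. Between the high and the low dose of Sibjeondaebo-tang the direction was the other way. The mean mitochondrial share was 18.97% at the high and 16.1% at the low dose, with the higher summed level at the high dose. Palmul-tang and Samul-tang went like Sibjeondaebo-tang in this. The single Sagunja-tang library at the high dose had a lower share (15.6%) than that at the low dose (16.7%), and a higher sum. The part of the mitochondrial share in the results below was not tested.

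The dose comparison within Sibjeondaebo-tang asked how the subunit genes differ between 500 and 20 µg/mL, with no vehicle library in the contrast. The edgeR quasi-likelihood test with Benjamini-Hochberg adjustment over all genes found 28 of 37 subunit genes higher at an adjusted p under 0.05. Of all genes tested, 18.5% were higher and 19.9% were lower. All 37 log2 changes were positive, from 0.05 to 0.32, with a median of 0.20 against -0.01 over all genes. For 31 genes each high-dose library lay above each low-dose library. How many of all genes tested did so was not counted, so this number describes the subunit genes only. Without replicate 1 of the low dose, the library with the lowest sum of its group, 17 genes were higher. Well-expressed genes leaned upwards in this contrast as a whole: of the 5294 protein-coding genes whose mean log2 CPM was 5 or more, 40.2% were higher, with a median log2 change of 0.08. Of the 34 subunit genes at that level 27, or 79.4%, were higher, with a median of 0.20.

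**Figure D2:**
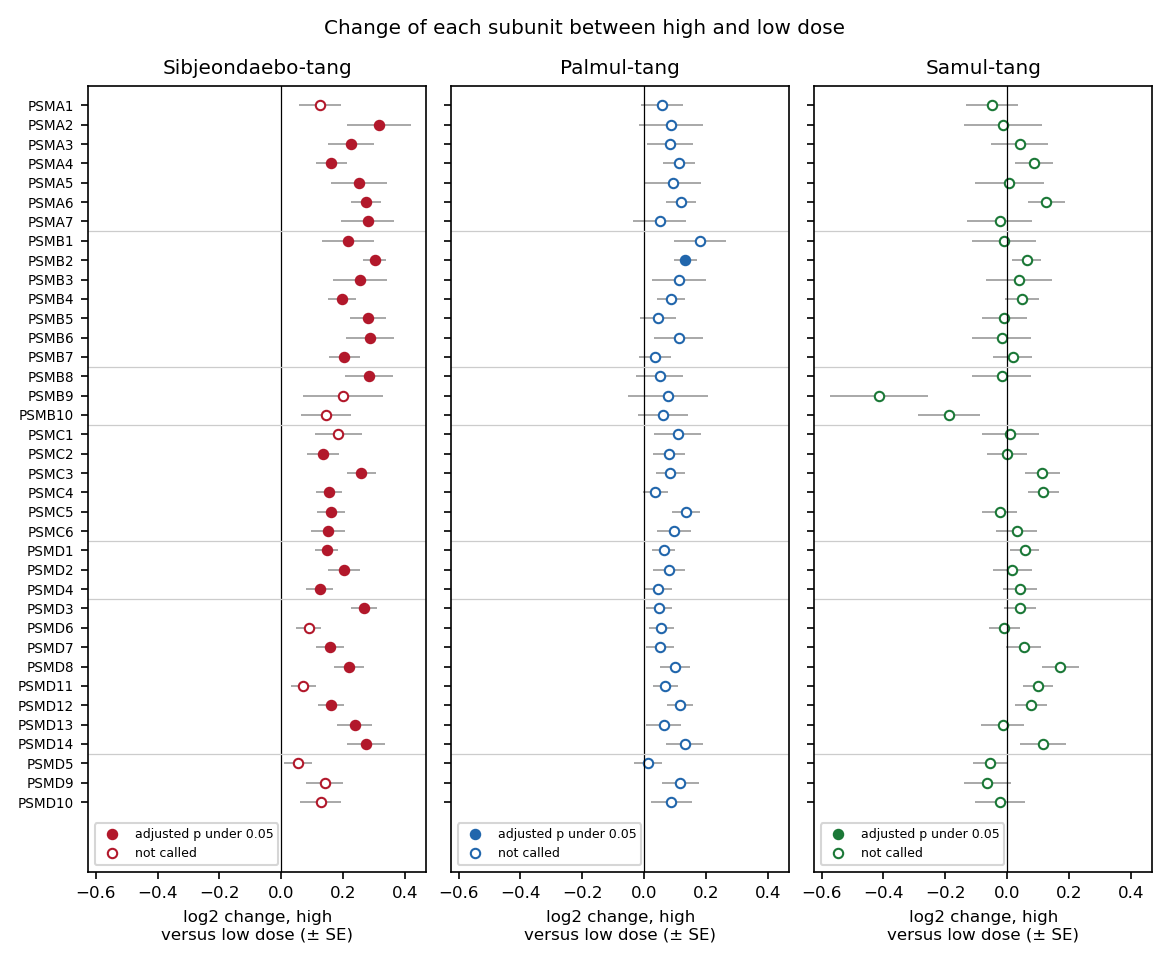
Log2 change of each subunit gene between the high and low dose in Sibjeondaebo-tang, Palmul-tang and Samul-tang, by class of subunit; error bars are SEs of the edgeR fit and filled points passed the test. All 37 points of Sibjeondaebo-tang lie right of 0, and 28 of them passed.

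In the alpha ring 6 of 7 genes were higher, with a median log2 change of 0.25. PSMA6 had 247, 234 and 236 CPM at the high dose, against 194, 202 and 197 CPM at the low dose. The 2 groups did not overlap, and the log2 change was 0.27 ± 0.049 (SE, edgeR adjusted p = 3.39e-05). PSMA2, whose product takes part in the gate of the barrel, had the largest change of the set at 0.32 ± 0.10 (edgeR adjusted p = 0.0205). It had 84.8, 77.3 and 71.8 CPM at the high dose and 55.2, 67.6 and 65.03 CPM at the low dose, with a wide spread in both groups. PSMA7 (0.28), PSMA5 (0.25), PSMA3 (0.22) and PSMA4 (0.16) also passed. PSMA1 did not, with a log2 change of 0.13 and an edgeR adjusted p of 0.152. PSMA6 and PSMA2 have 4 and 3 named pseudogenes, with which reads can be shared.

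In the beta ring 7 of 7 constitutive genes were higher, with a median log2 change of 0.25. PSMB2, a subunit without a proteolytic site of its own, had the smallest adjusted p of the 37 genes. It lies on chromosome 1 from 35599544 to 35641844, on the minus strand (GRCh38). Its libraries had 147, 144 and 148 CPM at the high dose and 122, 119 and 115 CPM at the low dose. The gap between the groups was wider than the spread inside either. The log2 change was 0.30 ± 0.038 (SE, edgeR adjusted p = 1.34e-07). At the medium dose PSMB2 had 128, 120.4 and 126 CPM, so the medium-dose libraries lay below those of the high dose and overlapped with those of the low dose. PSMB4, another non-catalytic subunit, had 193, 188 and 184 CPM at the high dose and 164, 168 and 162 CPM at the low dose (log2 change 0.19 ± 0.045, edgeR adjusted p = 0.00091). PSMB3 (0.25) and PSMB1 (0.22) passed with larger errors.

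The 3 catalytic subunits of the constitutive core were higher together. PSMB5, which has the chymotrypsin-like site that proteasome inhibitor drugs such as bortezomib bind, had 183, 175 and 163 CPM at the high dose against 135, 148 and 146 CPM at the low dose. Its groups did not overlap, and the log2 change was 0.28 ± 0.059 (SE, edgeR adjusted p = 0.000421). PSMB6, with the caspase-like site, had 181, 162 and 156 CPM at the high dose and 123, 143 and 143 CPM at the low dose. Its change of 0.29 ± 0.078 came with an edgeR adjusted p of 0.00597. PSMB7, with the trypsin-like site, had 120.0, 112 and 107 CPM at the high dose and 93.3, 97.5 and 104 CPM at the low dose, and changed by 0.20 ± 0.051 (edgeR adjusted p = 0.00172).

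The immunoproteasome subunits PSMB8, PSMB9 and PSMB10, which are known to take the places of PSMB5, PSMB6 and PSMB7 in cells exposed to interferon gamma, had 1 gene of 3 past the threshold. PSMB8 had 15.5, 14.7 and 14.6 CPM at the high dose against 11.2, 12.9 and 12.6 CPM at the low dose, and was higher by 0.28 ± 0.077 (edgeR adjusted p = 0.00371). PSMB9 had 4.02, 3.60 and 3.96 CPM at the high dose and 3.23, 3.27 and 3.60 CPM at the low dose. Its log2 change of 0.20 ± 0.13 did not pass (edgeR adjusted p = 0.237). PSMB10 had 14.8, 13.2 and 13.7 CPM at the high dose and 11.1, 13.8 and 12.8 CPM at the low dose, with overlapping groups and a change of 0.15 ± 0.081 (edgeR adjusted p = 0.159). PSMB8 and PSMB9 lie side by side on chromosome 6 with overlapping exons on opposite strands, and whether the counting used strand is not given in the sources used here.

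Per kilobase of transcript the immunoproteasome subunits were rare. In the high-dose libraries of Sibjeondaebo-tang PSMB6 had 193 ± 14.8, PSMB5 172 ± 9.66 and PSMB7 115 ± 6.62 CPM per kilobase (SD, n = 3 each). PSMB8 had 13.3 ± 0.418, PSMB10 11.4 ± 0.667 and PSMB9 4.91 ± 0.290 CPM per kilobase (SD, n = 3 each). In this order the ranges of 1 SD around the means of PSMB6 and PSMB5 overlapped, and those of the other neighbours did not. The 3 immunoproteasome genes made up 6.69% of the CPM per kilobase summed over these 6 genes in the vehicle, 5.99% at the low dose, 5.68% at the medium dose and 5.80% at the high dose.

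**Figure D3:**
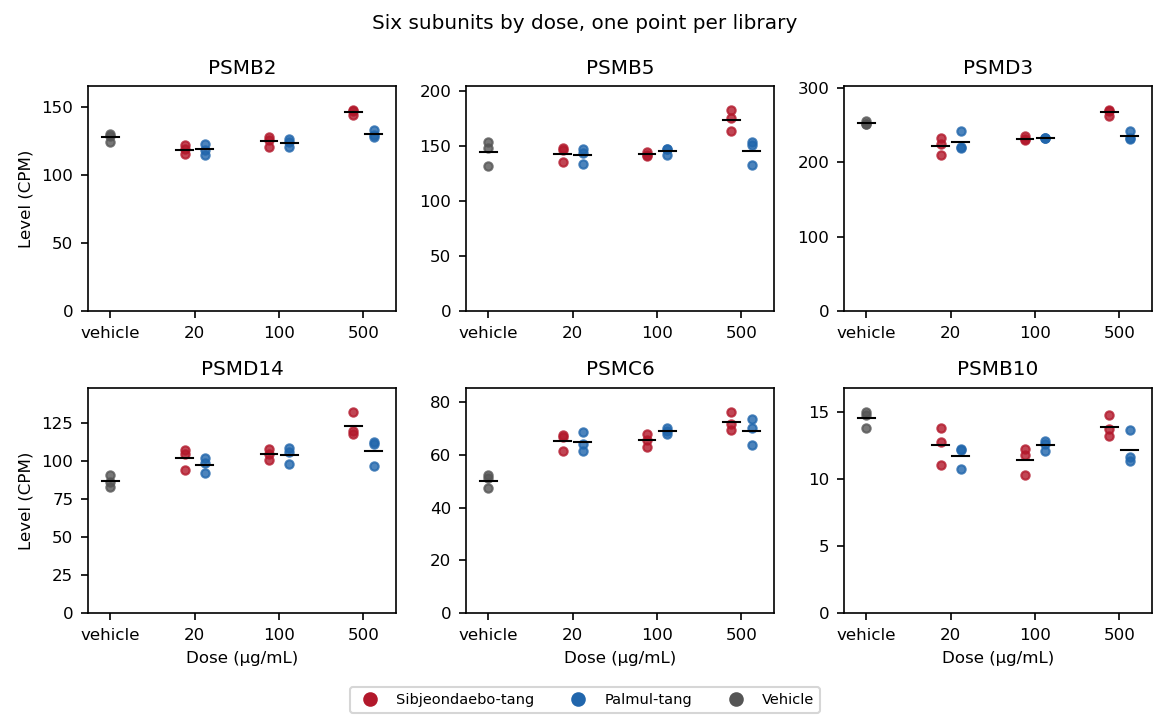
CPM of PSMB2, PSMB5, PSMD3, PSMD14, PSMC6 and PSMB10 in each library (points) by dose in µg/mL, for Sibjeondaebo-tang, Palmul-tang and vehicle, with group means (lines). PSMB2 lies between 144 and 148 CPM at the high dose of Sibjeondaebo-tang and between 115 and 122 CPM at its low dose.

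Among the ATPases of the 19S base 5 of 6 genes were higher, with a median log2 change of 0.16, and 3 of 3 non-ATPase genes of the base, with a median of 0.15. PSMC3 had 117, 112 and 108 CPM at the high dose against 94.2, 92.7 and 95.2 CPM at the low dose, without overlap. The log2 change was 0.26 ± 0.047 (SE, edgeR adjusted p = 4.24e-05), the largest in its ring. PSMC5 (0.16), PSMC4 (0.15), PSMC6 (0.15) and PSMC2 (0.14) passed with changes of similar size. PSMC1, which has 13 named pseudogenes, did not (0.18, edgeR adjusted p = 0.0587). Of the base scaffold genes PSMD2 changed by 0.20 and PSMD1 by 0.15, and the ubiquitin receptor gene PSMD4 changed by 0.12. PSMD1 had 209.3, 209.9 and 209.9 CPM at the high dose and 189, 190.4 and 189 CPM at the low dose, with a narrow spread in both groups.

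In the lid 6 of 8 genes were higher, with a median log2 change of 0.19. PSMD3, a structural lid subunit on chromosome 17 from 39980797 to 39997960 on the plus strand (GRCh38), had 269, 269.8 and 262 CPM at the high dose against 232, 224 and 209.7 CPM at the low dose. The groups were well apart, with a log2 change of 0.27 ± 0.042 (SE, edgeR adjusted p = 5.21e-06). PSMD14, the metalloprotease that removes the ubiquitin chain from the substrate, had 132, 119 and 118 CPM at the high dose and 93.8, 104 and 107 CPM at the low dose. It changed by 0.27 ± 0.060 (edgeR adjusted p = 0.000647). PSMD8, which completes the lid, had 296, 314 and 286 CPM at the high dose and 279, 254 and 237 CPM at the low dose (0.22 ± 0.049, edgeR adjusted p = 0.000568). PSMD13 (0.24), PSMD12 (0.16) and PSMD7 (0.16) passed too, while PSMD6 (0.09, edgeR adjusted p = 0.0926) and PSMD11 (0.07, edgeR adjusted p = 0.171) did not.

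None of the 3 base chaperones passed. These proteins help the ATPase ring to assemble and leave the finished particle. PSMD9 had a log2 change of 0.14 (edgeR adjusted p = 0.0673), PSMD10 of 0.13 (0.132) and PSMD5 of 0.05 (0.370), the smallest of the 37. PSMD5 had 82.8, 76.7 and 77.6 CPM at the high dose and 78.0, 76.0 and 74.1 CPM at the low dose, with overlapping groups.

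Upstream sequence was read for the subunit genes because they moved together and because motifs of the factors known to act on proteasome genes can be searched for. The 250 bases before each annotated RefSeq start were available for 32 of the 37 genes (GRCh38.p14). PSMA7, PSMB1, PSMB6, PSMB7 and PSMD4 had no entry. Upstream here means before any such start. The core of the antioxidant response element, TGACNNNGC on either strand, which NFE2L1 and NFE2L2 are known to bind, was upstream of 8 of the 32 genes (25.0%) and of 13.2% of all 27305 genes in the table. Some genes have more than 1 annotated start. Counted by window, it was in 8 of 39 windows of the subunit genes (20.5%) and in 10.9% of all 34943 windows. The CCAAT box was upstream of 16 of the 32 genes (50.0%, against 37.0% of all genes), and the ETS core CCGGAAG upstream of 7 (21.9%, against 10.2%). The 8 genes with the first motif were PSMA4, PSMB3, PSMB9, PSMC5, PSMD3, PSMD5, PSMD9 and PSMD12. A match is a description of the letters and not of binding, and motif letters can recur by base composition alone.

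The 4 windows below show this motif in the orientation of the gene, for genes that were higher at the high dose except where stated. They lie at chr17:39980745-39980803 (plus strand), chr15:78540635-78540693 (plus), chr17:67366709-67366767 (minus) and chr9:120843023-120843081 (minus). Capitals mark the 9 motif bases, which begin 37, 126, 165 and 134 bases before a RefSeq start. For PSMA4 that start lies downstream of the gene start at chr15:78540405. Its windows nearer the gene start, chr15:78540155-78540404 and chr15:78540194-78540443, have no match. PSMD5 did not pass the dose test, and neither did PSMB9 and PSMD9, which have the motif and are not shown. Whether genes with the motif differ from those without it was not tested. All 4 are written 5′ to 3′ on the strand of the gene.
PSMD3: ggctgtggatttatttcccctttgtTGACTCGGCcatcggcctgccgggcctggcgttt
PSMA4: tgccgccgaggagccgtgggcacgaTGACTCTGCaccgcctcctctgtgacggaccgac
PSMD12: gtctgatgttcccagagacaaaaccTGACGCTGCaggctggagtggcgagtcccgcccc
PSMD5: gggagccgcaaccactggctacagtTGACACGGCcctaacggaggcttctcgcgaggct

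The genes around the proteasome moved in both directions. Of 40 other genes of the pathway 38 were tested (PSMA8 and PSMB11 did not pass the filter). At the high against the low dose of Sibjeondaebo-tang 20 were higher and 3 lower, with a median log2 change of 0.12. Of all genes tested 18.5% were higher and 19.9% lower. Of protein-coding genes with a mean log2 CPM of 5 or more, 40.2% were higher and 17.8% lower. ADRM1, a ubiquitin receptor of the 19S base, had 117, 121 and 118 CPM at the high dose against 98.2, 89.4 and 86.7 CPM at the low dose. Its log2 change of 0.37 ± 0.047 (edgeR adjusted p = 1.71e-07) exceeded that of every subunit gene above. The proteasome-bound thioredoxin gene TXNL1 (0.29), the ubiquitin shuttle gene UBQLN4 (0.27), the activator gene PSME3 (0.24) and the core-assembly chaperone gene PSMG2 (0.29) were higher as well. UBA1, the main enzyme of ubiquitin activation, had 418, 428 and 423 CPM at the high dose and 390.2, 370.5 and 354 CPM at the low dose (0.19 ± 0.042, edgeR adjusted p = 0.000558).

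DDI2 went the other way. It encodes the protease that is known to cut NFE2L1 into its active form. DDI2 had 38.8, 34.3 and 36.3 CPM at the high dose against 45.6, 46.5 and 47.7 CPM at the low dose, a log2 change of -0.35 ± 0.059 (SE, edgeR adjusted p = 1.75e-05). Its exons overlap with RSC1A1 on the same strand, so the 2 genes may share reads. NGLY1, which removes sugars from NFE2L1 (-0.12, edgeR adjusted p = 0.0479), and the proteasome scaffold gene ECPAS (-0.11, edgeR adjusted p = 0.0193) were the other 2 lower genes. NFE2L1 mRNA itself had 515, 527 and 542 CPM at the high dose and 544, 526 and 517 CPM at the low dose, with a change of 0.00 (edgeR adjusted p = 0.969). NFE2L2, the other factor of the family, had a change of 0.08 (edgeR adjusted p = 0.158).

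Against the medium dose of 100 µg/mL, 24 of the 37 subunit genes were higher at the high dose of Sibjeondaebo-tang and 0 were lower, where 14.2% of all genes were higher and 16.4% lower. At a mean log2 CPM of 5 or more it was 22 of 34 subunit genes (64.7%), against 32% of protein-coding genes. The median log2 change was 0.15, and 36 of the 37 were positive. This contrast shares the high-dose libraries with the one above. The count was 11 without replicate 2 of the medium dose, and 15 without replicate 3 of the medium dose or replicate 1 of the high dose. PSMB2 changed by 0.23 (edgeR adjusted p = 1.97e-05), PSMA6 by 0.24 (0.000253) and PSMD3 by 0.21 (0.000289). PSMB8 had the largest change of all, 0.35 ± 0.078 (edgeR adjusted p = 0.00075), with 12.9, 10.2 and 11.9 CPM at the medium dose below all high-dose libraries. PSMB10, which did not pass against the low dose, passed here with 0.28 ± 0.082 (edgeR adjusted p = 0.00906).

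Within Palmul-tang the same dose step of 20 to 500 µg/mL gave smaller differences. PSMB2 was the 1 subunit gene past the threshold, where 1.46% of all genes were higher and 2.02% lower: it had 133, 129.7 and 128 CPM at the high dose and 123, 119 and 115 CPM at the low dose (0.13 ± 0.038, edgeR adjusted p = 0.0422). This call was lost with RLE scaling, without the filter, in a fit to these groups alone and when any of 5 of the 6 libraries was left out. All 37 log2 changes were positive, from 0.01 to 0.18 with a median of 0.08, against a median of 0.00 over all genes. At an unadjusted p under 0.05 there were 7 of the 37 genes, and 2492 of all 17701 genes tested, so this count is no result about the subunits. For 4 genes the groups did not overlap, and such genes were not counted over all genes. Of the 38 other pathway genes 0 passed, with 5 at an unadjusted p under 0.05.

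Within Samul-tang 0 of 37 subunit genes passed between the high and the low dose, in edgeR and in DESeq2, where 0.604% of all genes were higher and 0.74% lower. At an unadjusted p under 0.05 there were 4 of the 37 genes, and 2456 of all 17701 genes tested. The changes were split, 21 positive and 16 negative, with a median of 0.02 and 2 libraries a group. PSMB9 had the largest, with 3.47 and 2.82 CPM at the high dose against 3.98 and 4.41 CPM at the low dose (-0.41 ± 0.16, edgeR adjusted p = 0.214). Of the other pathway genes AKIRIN2, which carries proteasomes into the nucleus (0.36 ± 0.071, edgeR adjusted p = 0.004), and NFE2L2 (0.21 ± 0.053, edgeR adjusted p = 0.0362) were higher. Both calls rest on single libraries: that of NFE2L2 was lost without any of the 4, and that of AKIRIN2 without replicate 2 of the high or replicate 3 of the low dose. Sagunja-tang had 1 library per dose, and its doses were not tested against each other.

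Sibjeondaebo-tang and Palmul-tang were compared at 500 µg/mL, matched by mass of extract. Of the 37 genes 12 were higher with Sibjeondaebo-tang and 0 were lower, where 14.3% of all genes were higher and 16% lower. At a mean log2 CPM of 5 or more 12 of 34 subunit genes (35.3%) were higher, near the 33.1% of protein-coding genes at that level, so this count is no result about the subunits. None of the 34 was lower, against 15.1%. The median log2 difference was 0.13, and 35 of 37 were positive. PSMD3 had 269, 269.8 and 262 CPM with Sibjeondaebo-tang against 242, 233 and 231 CPM with Palmul-tang (0.18 ± 0.042, edgeR adjusted p = 0.000896). PSMC3 had 117, 112 and 108 CPM against 93.7, 97.4 and 102 CPM with Palmul-tang (0.20 ± 0.047, edgeR adjusted p = 0.00116). The catalytic gene PSMB5 had 183, 175 and 163 CPM with Sibjeondaebo-tang and 151, 133 and 154 CPM with Palmul-tang, a difference of 0.25 ± 0.059 (edgeR adjusted p = 0.00178).

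The other 9 that passed were PSMA6 (0.16), PSMA7 (0.33), PSMB2 (0.17), PSMB4 (0.12), PSMB6 (0.24), PSMB7 (0.17), PSMD2 (0.16), PSMD13 (0.20) and PSMD14 (0.21). Replicate 2 of the high dose of Palmul-tang decided part of this count: without it 5 genes passed, and PSMA6, PSMB7 and PSMD13 no longer did. That Palmul-tang library had 4120 CPM summed over the 37 genes, against 4490 and 4469 CPM in the other libraries of its group. Without replicate 3 of the high dose of Sibjeondaebo-tang 21 passed. DDI2 was lower with Sibjeondaebo-tang than with Palmul-tang at this dose, at 38.8, 34.3 and 36.3 CPM against 46.7, 45.7 and 46.7 CPM (-0.35 ± 0.060, edgeR adjusted p = 3.87e-05).

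Whether the dose response itself differed between the formulas was tested as the high-minus-low change of Sibjeondaebo-tang minus that of Palmul-tang. All 37 differences were positive, with a median of 0.12. PSMD3 (0.22 ± 0.059, edgeR adjusted p = 0.00968) and PSMB2 (0.17 ± 0.053, edgeR adjusted p = 0.0284) passed, which is 2 of 37, where 5.59% of all genes were higher and 9.29% lower. At a mean log2 CPM of 5 or more 2 of 34 subunit genes (5.88%) were higher, against 15.1% of protein-coding genes. None of the 34 was lower, against 8.58%. The medians at that level were 0.11 and 0.07. The share of higher subunit genes is near that of all genes and below that of comparable genes. This count is thus no result about the subunits. A larger response to Sibjeondaebo-tang was called singly for these 2 genes only, and with library totals alone for neither. At an unadjusted p under 0.05 there were 9 genes, a count that is not set against all genes here. With 1 library left out the count of subunit genes ran from 1 to 6. It was 1 without replicate 1 of the low dose of Palmul-tang or replicate 3 of the low dose of Sibjeondaebo-tang. It was 4 without replicate 3 of the high dose of Palmul-tang or replicate 1 of the low dose of Sibjeondaebo-tang, 5 without replicate 3 of the high dose of Sibjeondaebo-tang and 6 without replicate 3 of the low dose of Palmul-tang. PSMD3 passed in each of these fits. The call of PSMB2 was lost without replicate 3 of the high dose or replicate 1 of the low dose of Palmul-tang, or without replicate 3 of the low dose of Sibjeondaebo-tang.

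The size of these dose differences rests on how libraries are scaled. TMM factors were 0.923 to 0.936 at the high dose of Sibjeondaebo-tang and 1.00 to 1.05 at its low dose, and the 100 most abundant genes took 36.5% of the counts at the high dose and 32.7% at the low dose. The subunit genes held 0.445% of raw counts at the high dose and 0.430% at the low dose. With library totals alone the median of all genes shifts to -0.16, and the subunit median to 0.05. Their distance is 0.21 on the log2 scale, as with TMM, because a factor per library shifts all genes alike. On that scaling 2 subunit genes were higher, PSMB2 (0.15, edgeR adjusted p = 0.00217) and PSMD3 (0.12, edgeR adjusted p = 0.034), and 0 were lower, where 3.67% of all genes were higher and 34.3% lower. The 2 higher genes are near that background share. The other contrasts of the high dose moved likewise. With library totals alone 2 subunit genes were higher (PSMB2 and PSMB8) and 1 lower (PSMD5) than at the medium dose, where 3.42% of all genes were higher and 25.0% lower. Against Palmul-tang at the high dose 0 were higher and 2 lower (PSMD6 and PSMD11), where 2.56% of all genes were higher and 25.9% lower. The medians over all genes were then -0.11 in both contrasts, and those over the subunit genes 0.06 and 0.02. The difference of dose changes then had 0 subunit genes past the threshold and a subunit median of -0.01, against -0.13 over all genes, of which 0.554% were higher and 17.1% lower. Against the vehicle 12 were higher and 2 lower at the high dose of Sibjeondaebo-tang, where 10.4% of all genes were higher and 31.4% lower.

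The comparison with the vehicle shows each extract dose against 3 shared vehicle libraries. The vehicle libraries carry a prefix in their library codes that no extract library has. Samul-tang and Sagunja-tang share a prefix, and Palmul-tang and Sibjeondaebo-tang share another. The sample titles put vehicle and extracts in the same Batch E, and what that batch covers is not stated. The meaning of the prefixes is not given, so any difference in handling cannot be told apart from treatment. This also holds where Sibjeondaebo-tang or Palmul-tang is set beside Samul-tang or Sagunja-tang. With Sibjeondaebo-tang at its high dose 23 of 37 subunit genes were higher than in vehicle and 0 lower, where 20% of all genes were higher and 21.8% lower. At its medium dose 10 were higher and 7 lower (18.6% and 18.1% of all genes), and at its low dose 10 and 9 (18.6% and 18.2%). Among genes with a mean log2 CPM of 5 or more, 67.6% of 34 subunit genes and 37.9% of protein-coding genes were higher at the high dose. At the medium dose 29.4% of these subunit genes were higher and 17.6% lower, against 31.8% and 29% of such protein-coding genes. At the low dose it was 29.4% and 20.6%, against 29.6% and 30.9%, so the counts at these 2 doses are not above the share of comparable genes. Palmul-tang gave 7 higher and 12 lower at the low dose (18.2% and 17.8% of all genes), 11 and 8 at the medium dose (19.4% and 18.5%) and 14 and 4 at the high dose (19% and 18.1%).

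Samul-tang gave 6 higher and 7 lower at the low dose (15.6% and 15.1% of all genes), 4 and 2 at the medium dose (12.3% and 11.7%) and 8 and 3 at the high dose (15.3% and 13.9%). With single libraries, taken to vary like the other groups, Sagunja-tang gave 1 and 3 (10.2% and 8.98%), 2 and 0 (8.03% and 6.37%) and 5 and 0 (7.44% and 6.39%). Single libraries carried much of these counts. Without vehicle replicate 1, which had the highest mitochondrial share of its group, 9 subunit genes passed at the low dose of Sibjeondaebo-tang in place of 19. Without it 11 passed at the medium dose of Sibjeondaebo-tang in place of 17, 9 at the low dose of Palmul-tang in place of 19 and 11 at the high dose of Palmul-tang in place of 18. At the high dose of Sibjeondaebo-tang the count stayed between 20 and 25 whichever library was left out. Without vehicle replicate 1, Samul-tang had 7 at the low dose in place of 13 and 5 at the high dose in place of 11, and Sagunja-tang had 2, 1 and 3 from the low to the high dose in place of 4, 2 and 5. The count at the low dose of Sibjeondaebo-tang was also 12 without its replicate 2 and 11 without its replicate 3, and that at the low dose of Palmul-tang was 12 without its replicate 2. Samul-tang had 8 without replicate 2 and 3 without replicate 3 at the low dose, and 6 and 3 at the high dose. Without vehicle replicate 2, Sagunja-tang had 2, 1 and 9.

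**Figure D4:**
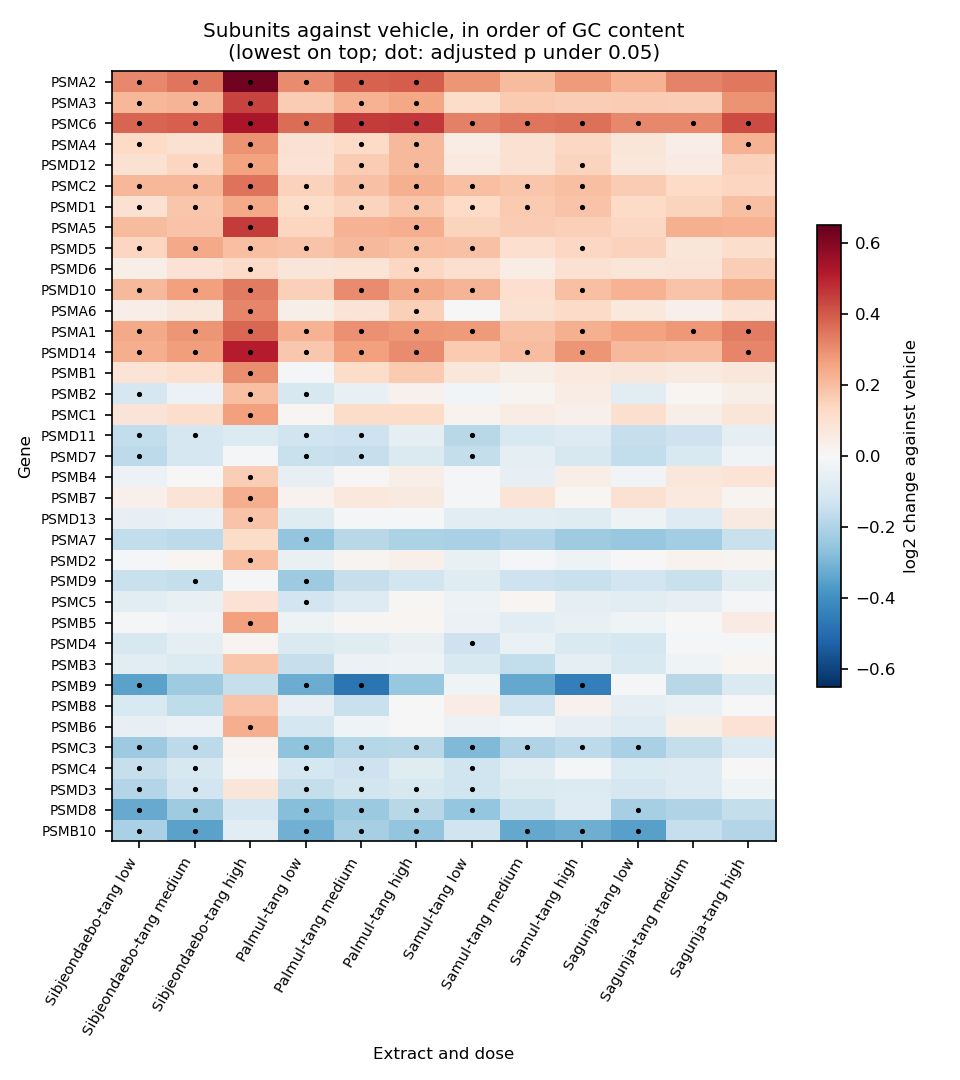
Log2 change of each subunit gene (rows, from lowest to highest GC content downwards) in each extract dose against vehicle (columns); dots mark an adjusted p under 0.05. PSMA2, in the top row, is above 0 in all 12 columns, and PSMB10, in the bottom row, is below 0 in all 12.

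Against the vehicle the calls of most subunit genes went in 1 direction. Over the 12 extract doses 22 genes passed as higher in 1 or more and as lower in none. Another 12 passed as lower in 1 or more and as higher in none. Several of these genes passed in only 1 comparison. The log2 changes of some crossed 0, such as those of PSMB6 (-0.11 to 0.23) and PSMD3 (-0.19 to 0.08). Such patterns were not counted over all genes. PSMB2 passed in both directions, and PSMB3 and PSMB8 in neither. The 12 comparisons share the vehicle libraries and are not independent of each other. PSMC6, an ATPase of the 19S ring, was higher in all 12, with log2 changes from 0.31 to 0.53. It had 47.3, 52.2 and 51.1 CPM in the vehicle, 61.5, 66.7 and 67.5 CPM at the low dose, 68.0, 65.7 and 63.0 CPM at the medium dose and 76.2, 69.4 and 71.6 CPM at the high dose of Sibjeondaebo-tang. Its change at the high dose was 0.53 ± 0.056 (SE, edgeR adjusted p = 4.21e-09).

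PSMD14 was higher in 9 of the 12 and had 132, 119 and 118 CPM in the high-dose libraries of Sibjeondaebo-tang, against 82.6, 90.4 and 86.0 CPM in vehicle (0.51 ± 0.061, edgeR adjusted p = 1.33e-07). PSMA1 and PSMD1 were higher in 10, PSMC2 in 9, PSMD5 in 8 and PSMD10 in 7. PSMA2 passed in 6 but had the largest single change, 0.63 at the high dose of Sibjeondaebo-tang.

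On the other side PSMC3, a neighbour of PSMC6 in the ATPase ring, was lower in 9 of the 12. With Sibjeondaebo-tang at its low dose it had 94.2, 92.7 and 95.2 CPM, against 106, 118 and 108 CPM in vehicle (-0.23 ± 0.047, edgeR adjusted p = 0.00015). In the high-dose libraries it had 117, 112 and 108 CPM and overlapped with the vehicle. PSMD8 was lower in 7 of the 12, with 279, 254 and 237 CPM in the same low-dose libraries against 324, 325 and 317 CPM in vehicle (-0.33 ± 0.049, edgeR adjusted p = 3.05e-06). PSMB10 was lower in 8, PSMD3 in 6, PSMC4 and PSMD11 in 5 each, and PSMB9 and PSMD7 in 4 each. ADRM1 was lower in all 12, from -0.53 at the low dose of Sibjeondaebo-tang to -0.16 at its high dose.

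This split followed base composition. Across the 37 genes the log2 change against vehicle ran against the GC content of the transcripts, with a Pearson r of -0.88 to -0.74 over the 12 comparisons. These r values are across genes, which are not replicates, and the 12 share the vehicle libraries, so they are a description. At the low dose of Sibjeondaebo-tang the genes that passed as higher had a median GC of 42.5% and those that passed as lower 55.2%. PSMA2 has the lowest GC content of the set (39.5%) and PSMB10 the highest (61.9%). Between the high and the low dose of Sibjeondaebo-tang r was 0.19, and between Sibjeondaebo-tang and Palmul-tang at the high dose it was 0.26.

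**Figure D5:**
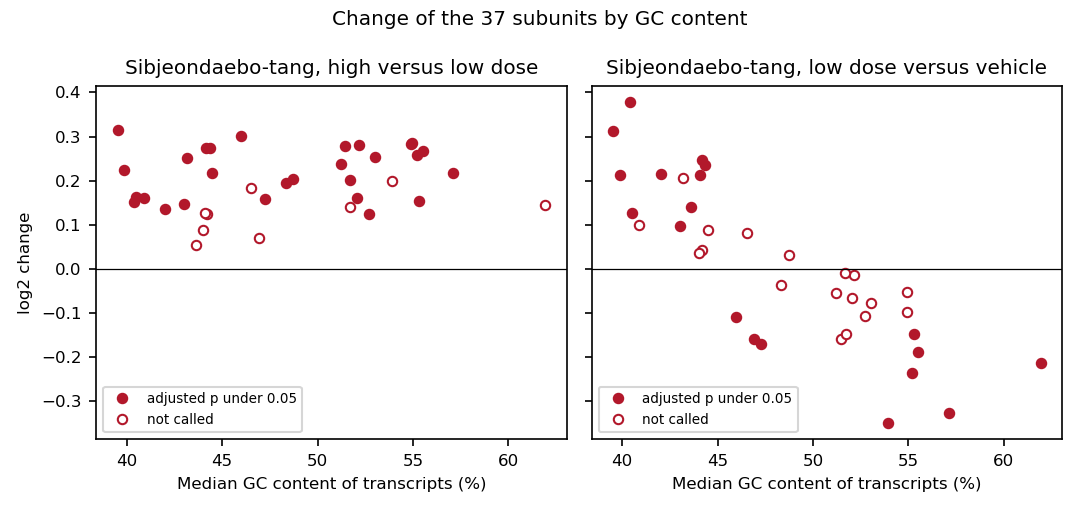
Log2 change of each subunit gene against the GC content of its transcripts in percent, for the high against the low dose of Sibjeondaebo-tang (left) and its low dose against vehicle (right). The left cloud is flat (r = 0.19), and the right one falls with GC content (r = -0.83).

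A fit in which each library's smooth dependence on GC content and transcript length was removed, added after the data were seen, changed the vehicle comparisons and left the dose comparison. At the low dose of Sibjeondaebo-tang 1 subunit gene was then higher and 7 lower than in vehicle, in place of 10 and 9. Calls over all genes fell too, to 8.44% higher and 9.27% lower. At the high dose of Palmul-tang it was 1 and 2 in place of 14 and 4, where 6.64% and 7.38% of all genes passed. At the high dose of Sibjeondaebo-tang it was 20 and 1 in place of 23 and 0, where 18.1% and 19.3% passed. PSMC6 still passed as higher in the 4 comparisons listed gene by gene, with log2 changes of 0.16 to 0.34. These are the low and high dose of Sibjeondaebo-tang and the high dose of Palmul-tang and of Samul-tang. PSMD11 passed as lower in all 4 and PSMD7 in 3. PSMA1, PSMA2, PSMC2, PSMD1, PSMD10 and PSMD14 passed as higher in 1 each, and PSMC3 and PSMD8 as lower in 1 each. PSMB9, PSMB10, PSMC4 and PSMD5 passed in none. PSMD3, called lower above, passed as higher in 1. Between the high and the low dose of Sibjeondaebo-tang 30 genes were higher and 0 lower in this fit, where 19.3% of all genes were higher and 19.3% lower. What gave the vehicle libraries their different GC dependence was not tested.

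The 37 genes lie on 15 chromosomes, with 6 on chromosome 17, 5 on chromosome 14 and 4 on chromosome 1. For 15 genes the annotation gives neither an exon shared with another gene nor a named pseudogene. PSMB2, PSMB4 to PSMB8, PSMA6, PSMC3, PSMD1 to PSMD3, PSMD8 and PSMD12 to PSMD14, which is 15 genes, were higher at the high against the low dose in each of 13 fits. These are the fit reported, its alternatives other than library totals alone, and the fits with 1 library left out.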

How the data were processed

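Directional MGI libraries of A549 total RNA were read as 100 bp pairs, per the labels' protocols. Per the submitters' processing notes, tools were FastQC 0.11.9, Trim Galore 0.6.5, STAR 2.7.3a and RSEM 1.3.3 with GRCh38. The annotation and the strand setting are not given in the sources used here. The authors deposited expected counts per gene (RSEM splits shared reads), of which 8.50% to 9.82% per library are not whole, and these were rounded here. The table holds 240 columns of other samples, which were not used. Wortmannin samples named in the series text were not analysed here.

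Genes passing filterByExpr (17701) were scaled by TMM and fitted in 1 edgeR 4.0.16 model (glmQLFit, robust; R 4.3.3) over 30 libraries with a mean per group and 17 residual degrees of freedom. All adjusted p-values are from glmQLFTest with Benjamini-Hochberg adjustment over all genes at 0.05, in 18 comparisons; a gene called higher or lower passed it. SEs are the log2 change divided by the square root of F. Symbols, coordinates, GC content and lengths come from GENCODE 29, and promoter windows from RefSeq. The fit was tested on simulated data. Totals of 23986637 to 35159898 counts set the precision, and errors are SDs over libraries.

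Members and lists were chosen with earlier results of these data known. Full statistics were given to at most 8 called subunit genes per direction with the smallest adjusted p, to the 3 immunoproteasome genes and their counterparts, and to at most 6 other pathway genes plus NFE2L1 and NFE2L2. PSMA2, PSMD1, PSMD5, UBA1 and others outside this rule were named after their values were seen. Replicate numbers did not pair libraries. Deviations from the group means had a median r of 0.01 over 111 same-numbered pairs (-0.12 to 0.09), so no block was used. Alternatives were RLE factors, DESeq2 1.42.0, no filter, only the groups compared, a replicate block and each library left out. Library totals alone and a GC and length offset (GC known for 99.3% of tested genes) were chosen after seeing the data.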

Additional observations from a re-analysis of the deposited data

Results flagged for a closer look

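The change between 20 and 500 µg/mL differed between Sibjeondaebo-tang and Palmul-tang for 5 of the named genes in the edgeR test of that difference. In that test 5.59% of all genes were higher and 9.29% lower. The high-minus-low log2 change of Sibjeondaebo-tang exceeded that of Palmul-tang by 0.17 for PSMB2 and by 0.22 for PSMD3, the 2 subunit genes that passed. For the ubiquitin receptor gene ADRM1 the difference was 0.31 ± 0.067 (SE, edgeR adjusted p = 0.00135): with Sibjeondaebo-tang it had 117, 121 and 118 CPM at the high and 98.2, 89.4 and 86.7 CPM at the low dose, and with Palmul-tang 103, 101 and 93.1 CPM at the high and 96.4, 91.7 and 96.2 CPM at the low dose. For DDI2, which encodes the protease that cuts NFE2L1, it was -0.33 ± 0.083 (SE, edgeR adjusted p = 0.00575). DDI2 had 38.8, 34.3 and 36.3 CPM at the high and 45.6, 46.5 and 47.7 CPM at the low dose with Sibjeondaebo-tang, and 46.7, 45.7 and 46.7 CPM at the high and 45.1, 48.4 and 47.6 CPM at the low dose with Palmul-tang. For the ubiquitin-activating enzyme gene UBA1 it was 0.20 ± 0.059 (SE, edgeR adjusted p = 0.0178). The calls of ADRM1 and DDI2 held in every alternative run, and that of UBA1 was lost with library totals alone and without replicate 3 of the high or replicate 1 of the low dose of Palmul-tang or replicate 3 of Sibjeondaebo-tang at the low dose.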

How the results depend on the processing

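Of 121 results for single genes, DESeq2 lost 3 calls, RLE factors 2, no filter 5 and a fit to only the groups compared 10. Library totals alone lost 42 and the GC and length offset 35, with 8 turned round. The cause of these losses was not tested. Counts of subunit genes that passed, either direction, moved by over 1.5 times as follows. With library totals alone they were 2 for the high against the low dose of Sibjeondaebo-tang, 3 against its medium dose, 14 against vehicle, 2 against Palmul-tang at the high dose (both lower, PSMD11 and PSMD6), 0 for the difference of dose changes and 0 for the doses of Palmul-tang, and 2 and 1 for the low and medium dose of Sagunja-tang. With the GC and length offset, the counts against vehicle from the low to the high dose were 8 and 4 for Sibjeondaebo-tang (low and medium), 7, 5 and 3 for Palmul-tang, 4, 1 and 3 for Samul-tang and 2, 1 and 1 for Sagunja-tang. The 8 log2 changes against vehicle that turned round in that fit were PSMA3 (-0.0094) and PSMD5 (-0.0116) for Sibjeondaebo-tang at the low dose, PSMA4 (-0.0093), PSMB10 (0.0033), PSMD12 (-0.0033) and PSMD3 (0.0075) at the high dose of Palmul-tang, and PSMD12 (-0.0452) and PSMD5 (-0.0138) at the high dose of Samul-tang. Without the filter there were 9 for the difference of dose changes, 20 for Sibjeondaebo-tang against Palmul-tang, 0 for the doses of Palmul-tang, 10 for the medium dose of Samul-tang, and 8 for the low and the high dose of Sagunja-tang. A fit to only the groups compared gave 1 for the difference and 0 for the doses of Palmul-tang, where RLE factors also gave 0. DESeq2 gave 8 at the high and 4 at the medium dose of Sagunja-tang.

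With the replicate number as a block the count was 27 for the high against the low dose of Sibjeondaebo-tang and 1 for the medium dose of Sagunja-tang. The block moved no other count by over 1.5 times, and lost 1 call of a single gene. Of 27 libraries 11 correlated best with their own number.

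With 1 library left out, counts ran from 17 to 31 for the high against the low dose of Sibjeondaebo-tang, 11 to 26 against its medium dose, 5 to 21 against Palmul-tang, 1 to 6 for the difference, 0 to 1 for the doses of Palmul-tang and 0 to 0 for those of Samul-tang. Against vehicle, from the low to the high dose, they ran from 9 to 17, 11 to 16 and 20 to 25 for Sibjeondaebo-tang, 9 to 18, 14 to 18 and 11 to 18 for Palmul-tang, 3 to 12, 4 to 6 and 3 to 13 for Samul-tang, and 2 to 6, 1 to 2 and 3 to 9 for Sagunja-tang. Depth limits PSMB9 most, with 85 to 146 counts per library.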
